A study of Homo sapiens with 24 samples.

Results

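The response of VHL-mutant cells to dox withdrawal was measured beyond the response that withdrawal alone produced in cells reported to keep endogenous VHL. All cells descend from HK2, an immortalised line of human proximal tubule, and every clone carried a VHL transgene that is switched on by doxycycline (dox). Endogenous VHL was described as intact in WT8 and as knocked out in MUT10 and MUT35. RNA was sequenced from each of the 3 clones with dox (dox on, transgene expressed) and after dox withdrawal (dox off), in 4 replicates each. For every gene the dox off minus dox on difference of WT8 was subtracted from the mean of the same differences in MUT10 and MUT35, on the log2 scale. This difference of differences is called the interaction here. A positive value means that the mutant clones ended higher after withdrawal than the WT8 response would place them. All 24 of the 24 libraries of the series entered it, 8 of them from WT8. All cells were grown in RPMI with serum, and the groups shared everything stated but the clone and dox. WT8, MUT10 and MUT35 are 1 clone each, so a response particular to a clone cannot be told apart from an effect of its VHL genotype.

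VHL is the substrate-binding part of a ubiquitin ligase complex. When oxygen is present, prolyl hydroxylases of the EGLN family modify the alpha subunits of the hypoxia-inducible factors (HIF), and VHL then marks these subunits for degradation. Without VHL the subunits accumulate, pair with ARNT and switch on genes of glycolysis, angiogenesis, matrix remodelling and mitochondrial turnover, as happens in most clear cell renal carcinomas. Inactivation of VHL in the mutant clones used CRISPR-Cas9 with the guide shown here. It is shown because it fixes where the endogenous gene was cut. Its match is on hg38 at chr3:10142089-10142108 on the plus strand, inside the coding sequence of exon 1 of VHL in the GENCODE canonical transcript. Capitals mark the PAM that follows the guide in the genome.
VHL sg6: cgcgcgtcgtgctgcccgtaTGG

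VHL itself, on chromosome 3 from 10141778 to 10153667 (hg38), was checked first. In WT8, VHL was at 199, 224, 222 and 235 CPM with dox and 28.8, 26.1, 32.7 and 32.3 CPM after withdrawal. MUT10 went from 371, 385, 400.4 and 369 to 27.0, 30.4, 28.5 and 34.1 CPM. MUT35 went from 227, 267, 229 and 192 to 18.3, 17.8, 18.6 and 18.1 CPM. In each clone all libraries after withdrawal lay below all libraries with dox. WT8 and MUT10 overlapped after withdrawal, and MUT35 lay below both. The counts are per gene, so transgene and endogenous gene are counted together, and they do not show whether the guide's site is mutated. The fall of VHL was larger in the mutant clones than in WT8, with an interaction of -0.79 (standard error 0.11), from a higher starting level in MUT10 and a lower end level in MUT35.

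The sources differ on the clones. By the sample labels WT8 is wild type with and without dox, while a methods sentence of the study counts it with the VHL-mutated derivatives, and the series description sets WT8 without dox among the knockouts. The labels also give lung as the tissue. Library totals were 5206663 to 18196003 counts, and 13900 of 26475 gene symbols were tested in 1 edgeR quasi-likelihood model. A gene was called at a Benjamini-Hochberg adjusted p under 0.05, and every adjusted p given here is from that model. Nothing in the sources says that the replicates were separate cultures, so p-values measure the spread between libraries, which may be technical.

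Subtracting the WT8 response also removed a trend that ran through the separate contrasts. Across the 13363 tested genes with a known transcript GC content, Spearman's rho of the withdrawal effect with GC content was 0.731 in WT8 and 0.623 in the mean of the mutant clones, against 0.013 for the interaction. The points are genes of the same libraries and are not replicates. In the GC-poorest of 10 bins of genes the median withdrawal effect was -0.51 in WT8 and -0.50 in the mutant clones, and in the GC-richest bin it was 0.67 and 0.69. The median interaction in these bins was -0.01 and 0.01. When each library's GC trend was removed before the fit, 3183 of the 3212 interaction calls among these genes (99.1%) were made again in the same direction and none in the opposite direction. For the WT8 contrast alone the same was true of 3642 of 8066 calls (45.2%), and 433 turned around. The removal also raised the number of interaction calls among these genes, from 3212 to 4409. Higher calls went from 1644 to 2118 and lower calls from 1568 to 2291. Which step of the experiment gave the trend was not tested.

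**Figure D1:**
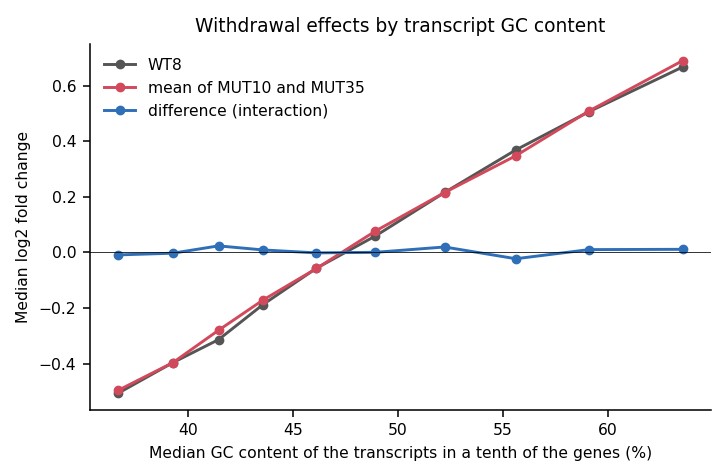
Median log2 fold change (vertical axis) in 10 bins of genes ordered by transcript GC content (horizontal axis, median GC of the bin in percent), for WT8, for the mean of MUT10 and MUT35, and for their difference. The WT8 and mutant lines climb together from about -0.5 to 0.67 and 0.69, while the interaction stays between -0.022 and 0.024.

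By the interaction, 1684 genes (12.1% of those tested) stood higher in the mutant clones and 1588 (11.4%) stood lower, and 363 (2.61%) and 167 (1.2%) of them by more than 2-fold. Together these are 3272 genes (23.5%). Most differences were small. The median absolute interaction of a called gene was 0.51 on the log2 scale, and 83.8% of the calls were of 2-fold or less. The MUT10 dox off replicate 4 and dox on replicate 2 libraries had GC slopes between those of the dox states, and without both of them 1842 genes were higher and 2325 lower.

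The called genes reached their interaction in different ways, by the separate contrasts with the GC trend left in. Among genes with known GC content, removing that trend turned around 433 of 8066 WT8 calls and 942 of 9939 calls of the mutant mean. Directions given below for WT8 or for the mutant clones alone carry this limit. Of the 1684 higher genes, 707 were called in the mutant mean and not in WT8, 441 rose in both but more in the mutant clones, and 212 rose in the mutant clones and fell in WT8. Another 222 were called in WT8 and not in the mutant mean, with a median WT8 effect of -0.43 and a median mutant effect of 0.03. Of the 1588 lower genes, 506 were called in the mutant mean and not in WT8, 455 fell in both but more in the mutant clones, 212 fell in the mutant clones and rose in WT8, and 274 were called in WT8 only. Among the genes over 2-fold the mutant clones led more often, with 214 of 363 higher genes and 84 of 167 lower genes called in the mutant mean and not in WT8.

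**Figure D2:**
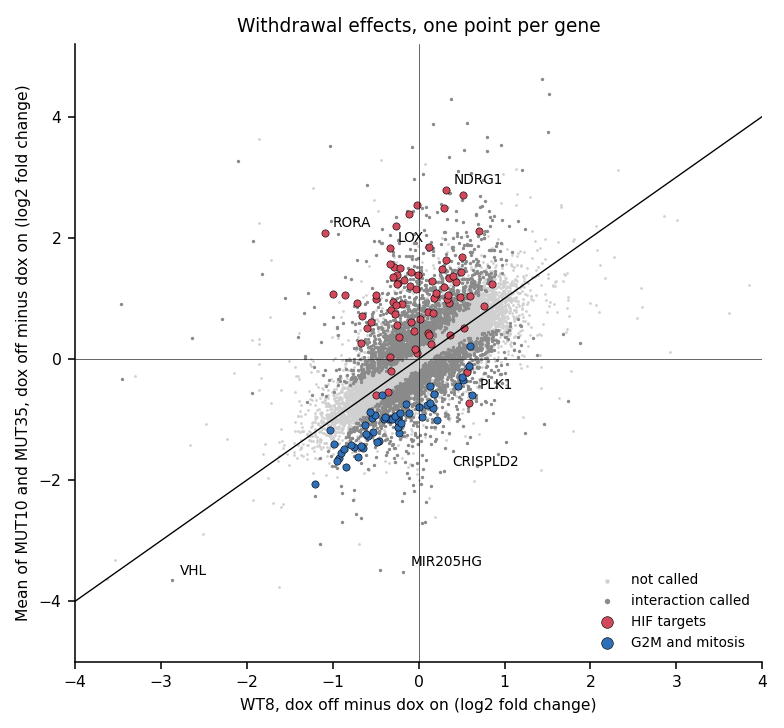
Withdrawal effect of each gene in WT8 (horizontal axis) and in the mean of MUT10 and MUT35 (vertical axis), both as log2 fold change of dox off minus dox on. The diagonal is an interaction of 0. HIF targets sit above it with a median interaction of 1.10 and genes of G2M and mitosis below it with a median of -0.71. Of the genes tested, 18 lie outside the axes.

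HIF target genes had the largest median interaction of the gene lists examined. Of 75 members tested, 61 (81.3%) were higher by the interaction and 2 (2.67%) were lower, against 12.1% and 11.4% of all genes, and 38 were higher by more than 2-fold. Their median interaction was 1.10, against 0.01 over all genes tested. In WT8 itself 25 members rose and 24 fell after withdrawal, where 29.5% and 29.8% of all genes did, and the median was -0.03. The mean log2 CPM of the list was 5.59 to 5.69 in the WT8 libraries with dox and 5.62 to 5.66 after withdrawal. It went from a range of 5.56 to 5.65 to one of 6.79 to 6.86 in MUT10, and from 5.78 to 5.83 to 6.61 to 6.66 in MUT35. Without the pair of MUT10 libraries with intermediate GC slopes, 63 members were higher and 2 lower.

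**Figure D3:**
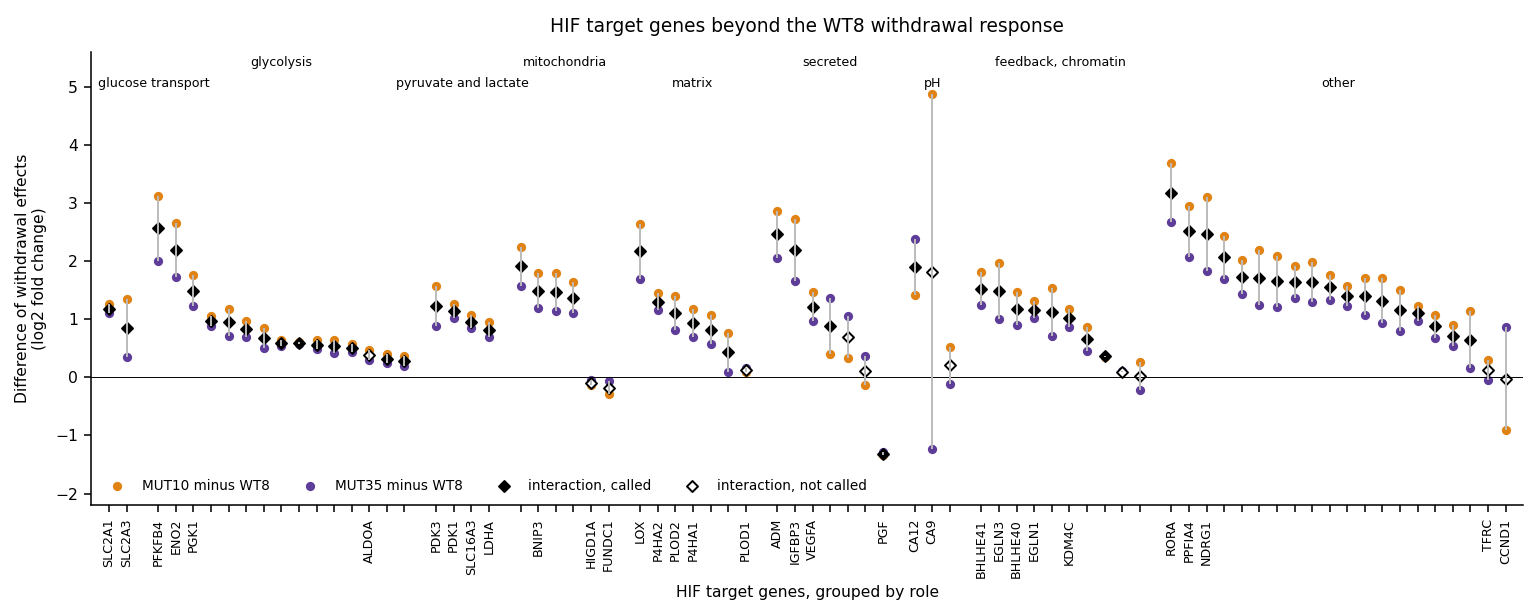
Interaction of each HIF target gene (diamonds, filled where called) and the separate differences of MUT10 and of MUT35 from WT8 (points), as log2 fold change on the vertical axis, with genes along the horizontal axis grouped by role and labelled where the text names them. 1 member is not shown. The separate differences share the WT8 libraries. Most diamonds lie above 0. The clones are furthest apart at CA9, which was under the floor in WT8 and MUT35.

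In glycolysis, 14 of 15 members were higher, with a median of 0.59, and ALDOA (0.38, not called) was the exception. Members named in the sentences on HIF targets beyond the rule for named genes were chosen after their values were seen. The largest interactions were those of PFKFB4, which makes and removes the activator of phosphofructokinase, and ENO2, an enolase. In WT8, PFKFB4 was at 6.45, 7.83, 9.20 and 6.12 CPM with dox and 7.29, 8.71, 6.07 and 7.71 CPM after withdrawal. MUT10 went from 6.95, 10.2, 6.59 and 8.72 to 73.4, 71.7, 77.3 and 58.2 CPM. MUT35 went from 10.8, 11.4, 10.4 and 11.4 to 40.9, 48.0, 41.1 and 43.9 CPM. WT8 in both dox states and MUT10 with dox overlapped, MUT35 with dox lay just above them, and the mutant libraries after withdrawal stood far above all others. The interaction of PFKFB4 was 2.56 (standard error 0.18) and that of ENO2 was 2.19 (standard error 0.13). PGK1, phosphoglycerate kinase, had an interaction of 1.49 (standard error 0.072), after a fall by 0.23 in WT8 (edgeR adjusted p = 0.0013). UCN2 shares exon sequence with PFKFB4, and ATP7A with PGK1, so how reads were divided there is uncertain. The 2 glucose transporters tested, SLC2A1 (1.18) and SLC2A3 (0.85), were both higher.

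All 4 genes that steer pyruvate away from mitochondria or export lactate were higher, namely PDK3 (1.23), PDK1 (1.14), the lactate exporter SLC16A3 (0.96) and LDHA (0.82). PDK1, PDK3 and LDHA fell in WT8, so their withdrawal effect in the mutant clones alone, 0.82 for PDK1 and 0.56 for LDHA, was smaller than the interaction. Of 6 members linked to mitochondria, 4 were higher, with a median of 1.42 over the 6. BNIP3, a receptor of mitophagy, was one of them. In WT8, BNIP3 was at 197, 183, 187 and 185 CPM with dox and 137, 135, 132 and 130.3 CPM after withdrawal. MUT10 went from 248, 222, 237 and 235 to 556, 580.2, 549.5 and 626 CPM. MUT35 went from 215, 210.1, 206 and 239 to 369, 346, 350.0 and 347 CPM. WT8 libraries after withdrawal lay below those with dox, and both mutant clones moved the other way. The interaction of BNIP3 was 1.49 (standard error 0.065). HIGD1A (-0.09) and FUNDC1 (-0.18) were not called.

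Matrix genes followed, with 6 of 7 higher. LOX, which crosslinks collagen and elastin, was called in opposite directions, down in WT8 and up in the mutant clones. In WT8, LOX was at 97.5, 82.6, 77.7 and 78.0 CPM with dox and 65.5, 66.9, 66.0 and 66.6 CPM after withdrawal. MUT10 went from 96.5, 90.4, 92.4 and 97.4 to 479, 448, 453 and 481 CPM. MUT35 went from 151, 142, 152 and 139.7 to 371, 385, 377 and 364 CPM. No WT8 library reached the level of any mutant library after withdrawal. LOX had an interaction of 2.17. The collagen hydroxylases P4HA2 (1.30), PLOD2 (1.11) and P4HA1 (0.93) were higher too, and PLOD1 (0.12) was not called. Secreted factors were the most mixed role, with 4 of 8 higher and 2 lower. IGFBP3, a binding protein of insulin-like growth factors, was at 2.19, the vasodilator peptide ADM at 2.46, and the angiogenic factor VEGFA at 1.21. PGF, another angiogenic factor, was at -1.31. Its level was low, at 0.650 to 5.83 CPM over the libraries, and its dox states overlapped in both mutant clones. The value of PGF ran from -1.46 to -0.69 over the alternatives, and its call was lost with libraries thinned to the smallest.

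Among pH regulators the membrane carbonic anhydrase CA9 was measured above the floor in MUT10 only. In WT8, CA9 was at 0, 0.124, 0.239 and 0.100 CPM with dox and 0.0972, 0.106, 0.0547 and 0.171 CPM after withdrawal. MUT10 went from 0.599, 0.918, 1.26 and 1.12 to 28.5, 21.3, 27.8 and 18.8 CPM. MUT35 went from 0.108, 0.137, 0.164 and 0 to 0, 0, 0 and 0.108 CPM. WT8 and MUT35 were under the level of 3 counts in every library, a floor of 0.164 to 0.569 CPM over the 24 libraries, and no fold is given for them. The interaction of CA9 was not called (1.82, standard error 1.4), while the withdrawal effects of MUT10 and MUT35 differed (edgeR adjusted p = 0.000836). CA12, the related enzyme, was higher (1.90). In the group of feedback and chromatin genes 8 of 10 were higher. They include the HIF hydroxylases EGLN3 (1.49) and EGLN1 (1.16), the repressors BHLHE41 (1.53) and BHLHE40 (1.18), and the histone demethylase KDM4C (1.01). EGLN1 fell by 0.55 in WT8. Of the 20 remaining targets 18 were higher, led by the nuclear receptor RORA (3.17), PPFIA4 (2.51) and NDRG1 (2.47), and CCND1 (-0.03) and TFRC (0.12) were not called. RORA was near the floor in WT8, at 0 to 0.428 CPM after withdrawal, and its value ran from 2.85 without WT8 dox off replicate 1 to 4.32 with libraries thinned to the smallest, so its size is uncertain.

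Of 14 genes of the VHL and HIF pathway itself 4 (28.6%) were higher and 1 (7.14%) lower, against 12.1% and 11.4% of all genes. They were EGLN1, EGLN3, P4HTM (0.95) and EPAS1 against VHL. Of the ligase genes, VHL was called and CUL2 (-0.06), RBX1 (-0.06), TCEB1 (-0.03) and TCEB2 (0.09) were not. EPAS1, a HIF alpha subunit, was higher by 0.40 (standard error 0.072), from a difference of 1.09 in MUT10 and of -0.29 in MUT35. HIF1A (-0.16), ARNT (0.13) and ARNT2 (0.26) were not called.

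Promoters of the HIF targets with the largest interactions are shown because HIF binds DNA at a core of ACGTG or GCGTG. RefSeq entries (GRCh38.p14) were matched for 64 of the 75 HIF targets tested, and the 250 bases before each start site were searched on both strands. Of them 47 (73.4%) held ACGTG or GCGTG, against 11763 of all 27305 promoters of this length (43.1%). The 27305 promoters include those of genes not tested here, and the share among tested genes was not computed. ACGTG alone was in 35 of 64 (54.7%), against 18.7%. Of the 44 matched promoters of mitotic genes, which were lower by the interaction, 28 (63.6%) also held ACGTG or GCGTG and 13 (29.5%) held ACGTG. A match is a description and not a binding site. The genes shown have the largest interactions among the named HIF targets that were called in both clones' own differences from WT8 and hold a match, without NDRG1. Capitals mark ACGTG or GCGTG on either strand, and CACGTG is a match on both. The windows are chr3:48556804-48557053 on the minus strand for PFKFB4, chr1:203026241-203026490 on the plus strand for PPFIA4, chr12:6914330-6914579 on the plus strand for ENO2, chr7:45921273-45921522 on the minus strand for IGFBP3 and chr5:122078260-122078509 on the minus strand for LOX, with 1, 3, 1, 3 and 4 matches.
PFKFB4: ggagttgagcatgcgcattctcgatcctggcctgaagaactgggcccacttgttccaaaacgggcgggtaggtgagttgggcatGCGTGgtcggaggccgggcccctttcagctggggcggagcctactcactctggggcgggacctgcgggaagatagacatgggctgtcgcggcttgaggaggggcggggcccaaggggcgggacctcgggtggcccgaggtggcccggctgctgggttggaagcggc
PPFIA4: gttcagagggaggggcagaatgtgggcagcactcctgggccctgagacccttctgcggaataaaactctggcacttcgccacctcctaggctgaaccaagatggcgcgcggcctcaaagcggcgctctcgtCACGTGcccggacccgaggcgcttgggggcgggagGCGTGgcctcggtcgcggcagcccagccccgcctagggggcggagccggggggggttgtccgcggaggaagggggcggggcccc
ENO2: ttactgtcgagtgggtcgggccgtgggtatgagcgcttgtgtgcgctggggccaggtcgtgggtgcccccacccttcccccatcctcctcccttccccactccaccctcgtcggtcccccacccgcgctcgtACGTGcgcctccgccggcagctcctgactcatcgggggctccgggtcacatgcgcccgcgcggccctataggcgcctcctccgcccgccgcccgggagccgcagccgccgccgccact
IGFBP3: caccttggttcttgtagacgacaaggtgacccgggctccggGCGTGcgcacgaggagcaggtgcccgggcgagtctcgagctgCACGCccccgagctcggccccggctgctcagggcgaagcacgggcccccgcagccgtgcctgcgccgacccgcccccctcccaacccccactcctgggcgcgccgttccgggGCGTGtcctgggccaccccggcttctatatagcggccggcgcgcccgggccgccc
LOX: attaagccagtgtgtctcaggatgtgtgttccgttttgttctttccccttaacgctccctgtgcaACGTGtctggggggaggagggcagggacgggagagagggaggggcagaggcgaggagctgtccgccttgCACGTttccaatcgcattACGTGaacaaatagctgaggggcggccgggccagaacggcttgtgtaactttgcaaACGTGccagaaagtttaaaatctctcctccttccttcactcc

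Beyond the HIF list, RRAGD, ARFGEF3, SPNS2 and EFNA3 were among the largest rises called in both clones. RRAGD, a GTPase that passes amino acid and lysosome signals to mTORC1, lies on chromosome 6 from 89364616 to 89412273. In WT8, RRAGD was at 9.29, 8.21, 10.0 and 9.32 CPM with dox and 7.68, 7.65, 7.98 and 7.28 CPM after withdrawal. MUT10 went from 19.2, 15.4, 18 and 17.6 to 109, 118, 122 and 132 CPM. MUT35 went from 13.3, 9.76, 10.6 and 10.7 to 38.4, 43.6, 44.3 and 37.0 CPM. All mutant libraries after withdrawal lay above every other library. Its interaction was 2.60 (standard error 0.13). ARFGEF3, on chromosome 6 from 138161939 to 138344663, was at 2.38 ± 0.31 CPM with dox and 3.06 ± 0.37 after withdrawal in WT8 (SD, n = 4), and rose to 38.6 ± 2.6 in MUT10 and 33.3 ± 4.9 in MUT35. Its interaction was 2.99 (standard error 0.22). SPNS2, the exporter of sphingosine-1-phosphate, was higher by 2.63 (standard error 0.22) and rose in WT8 as well (0.80). EFNA3, a membrane-bound ephrin ligand, was higher by 2.58 (standard error 0.33). Other large rises were NEFL (3.04), a neurofilament protein, TMEM145 (2.56) and RIMKLA (2.52), which started at low levels. NEFL was near the floor in WT8, at 0.0857 to 0.766 CPM after withdrawal. Its value ran from 2.71 to 3.46 over the alternatives, so its size is uncertain. TRABD2B was called too, but no fold is given, since WT8 and MUT10 with dox were at or near the floor. It went from 8.09, 8.87, 7.97 and 10.4 to 29.2, 33.1, 32.7 and 34.0 CPM in MUT35. The call of TRABD2B was lost without WT8 dox on replicate 2.

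The largest fall with a call in both clones was that of MIR205HG, the host transcript of the epithelial microRNA miR-205. In WT8, MIR205HG was at 21.1, 27.0, 27.0 and 34.0 CPM with dox and 22.8, 22.9, 26.7 and 24.2 CPM after withdrawal. MUT10 went from 4.55, 3.86, 4.55 and 3.65 to 0.310, 0.258, 0.367 and 0.386 CPM. MUT35 went from 10.0, 9.55, 9.53 and 6.85 to 0.861, 1.43, 0.433 and 0.645 CPM. WT8 overlapped between its dox states, and 3 of the MUT10 libraries after withdrawal were at the floor of 3 counts, so the size of the fall in MUT10 is uncertain. The interaction of MIR205HG was -3.33 (standard error 0.24). Its exons contain MIR205. CRISPLD2, a secreted protein of the extracellular space, had an interaction of -2.16. In WT8, CRISPLD2 was at 126, 122, 118 and 111 CPM with dox and 151, 149, 149.8 and 137 CPM after withdrawal. MUT10 went from 36.0, 43.3, 45.1 and 39.7 to 5.89, 3.87, 4.4 and 5.6 CPM. MUT35 went from 218, 221, 229 and 216 to 138, 138, 141 and 143 CPM. The WT8 groups did not overlap and moved up, both mutant clones moved down, and MUT10 fell far more than MUT35. SFTA1P (-1.95), a long noncoding RNA, and TRIM55 (-1.90), a muscle-type ubiquitin ligase, fell in WT8 too (-0.67 and -1.15), and further in the mutant clones.

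AREG, a ligand of the EGF receptor, fell in both mutant clones and rose in WT8. In WT8, AREG was at 135, 139, 131 and 138 CPM with dox and 173, 163, 165 and 169 CPM after withdrawal. MUT10 went from 554, 569, 530.3 and 553 to 194, 181, 187 and 185 CPM. MUT35 went from 171, 169.9, 150.0 and 174 to 61.8, 63.7, 70.8 and 60.1 CPM. MUT10 with dox stood far above WT8, and after withdrawal it still lay above the WT8 libraries, while MUT35 lay below them. The interaction of AREG was -1.77 (standard error 0.065). CCDC80, a secreted matrix protein, was not called in WT8 (withdrawal effect 0.04, edgeR adjusted p = 0.658). In WT8, CCDC80 was at 102, 117, 108 and 108 CPM with dox and 109.7, 112, 113 and 112 CPM after withdrawal. MUT10 went from 50.4, 49.0, 50.2 and 42.8 to 15.4, 14, 17.5 and 16.1 CPM. MUT35 went from 81.9, 81.5, 84.5 and 76.2 to 25.1, 31.2, 26.1 and 28.6 CPM. The mutant libraries after withdrawal were the lowest of all. The interaction of CCDC80 was -1.62 (standard error 0.084), with differences of -1.65 and -1.58 in the clones. LINC01279 shares exon sequence with it. Also lower were the growth factor GDNF (-1.75), the iron-binding lipocalin LCN2 (-1.80), the vitamin D hydroxylase CYP24A1 (-1.52), the sialyltransferase ST6GALNAC5 (-1.67), CDK15 (-1.83) and FAM72C (-2.01). FAM72C belongs to a family of near-identical copies, so its reads are uncertain. CEMIP, a hyaluronan-degrading protein, fell to 0.443 to 0.709 CPM on average in all 3 clones. Its interaction was -1.38 (standard error 0.46) with an edgeR adjusted p of 0.0288. It rests on counts near the floor and was lost without WT8 dox off replicate 1 or replicate 4.

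**Figure D4:**
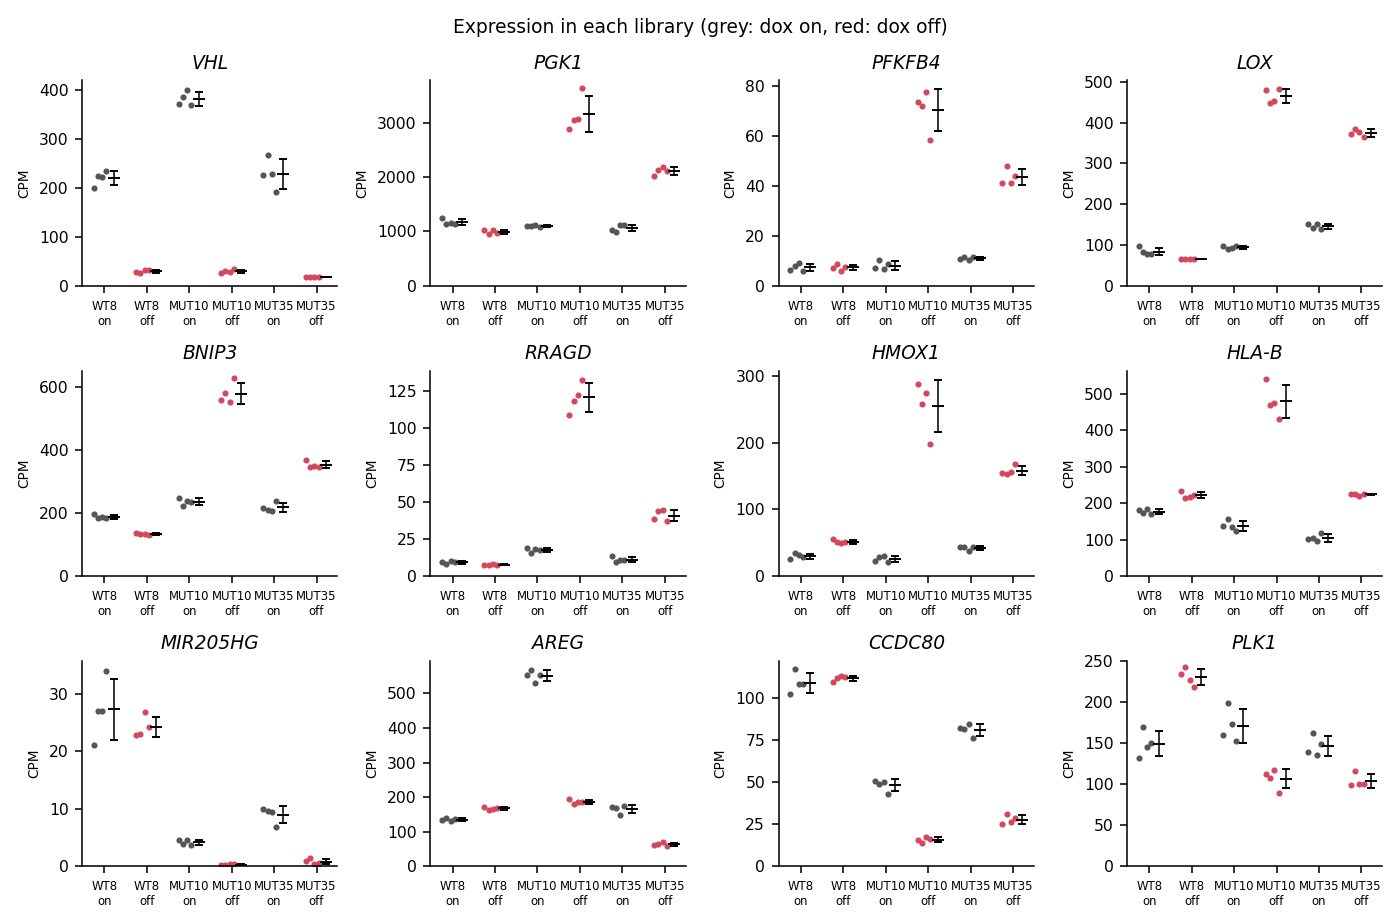
CPM of 12 genes (vertical axes, from 0), with the clones and their dox states along the horizontal axes. Each point is a library, 24 per gene, and each bar with whiskers gives a group's mean ± SD over 4 libraries. In the row from BNIP3 to HLA-B the MUT10 libraries after withdrawal are the highest, and CCDC80 is lowest in MUT10 and MUT35 after withdrawal.

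Mitotic genes were lower with little difference between the clones. Of 51 genes of G2M and mitosis tested, 48 (94.1%) were lower and 0 higher by edgeR, against 11.4% and 12.1% of all genes. Their median interaction was -0.71, and it was -0.75 in MUT10 and -0.67 in MUT35, each set against the same WT8 libraries. At an unadjusted p under 0.05, 49 were lower and 0 higher. DESeq2 and limma-voom also called 48 lower and 0 higher, and without the pair of MUT10 libraries with intermediate GC slopes all 51 were lower. WT8 took part in this fall, with 35 members lower and 11 higher after withdrawal and a median of -0.34. All 13 motor and spindle genes, 9 of 9 mitotic kinases and 9 of 9 cyclins and their regulators were lower. In bulk RNA, fewer cells in mitosis and less RNA in each of them cannot be told apart.

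PLK1, a kinase of mitotic entry, went opposite ways. In WT8, PLK1 was at 132, 169, 145 and 151 CPM with dox and 234, 243, 227 and 219 CPM after withdrawal. MUT10 went from 159.6, 199, 173 and 152 to 113, 108, 117 and 89.9 CPM. MUT35 went from 139, 162, 136 and 149 to 99.3, 116, 101 and 100.2 CPM. WT8 rose with no overlap between its dox states, and both mutant clones fell. The interaction of PLK1 was -1.21 (standard error 0.11), with an edgeR adjusted p of 2.3e-09. CDC20, the activator of the anaphase-promoting complex, had an interaction of -1.22 (standard error 0.075) with a rise of 0.21 in WT8. AURKA, a spindle kinase, fell in WT8 from 265 ± 1.6 to 226 ± 7.1 CPM (SD, n = 4) and in the mutant clones further, by an interaction of -0.99. NCAPD2 of condensin (-0.86) and the kinesin KIF20A (-0.98) were lower as well. Exons of other genes lie opposite PLK1, NCAPD2 and KIF20A, and whether the counting used strand is not known.

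The promoters of CDC20 and PLK1 are shown because many mitotic promoters carry the element TTTGAA or TTCGAA, called the cell cycle genes homology region. It was in the 250 bases before the start site of 25 of the 44 mitotic genes with a RefSeq entry (56.8%), against 3983 of all 27305 promoters (14.6%), and CCAAT was in 32 of 44 (72.7%), against 33.0%, both searched on both strands. The 27305 promoters again include those of genes not tested. CDC20 and PLK1 are the mitotic genes with the largest interactions under the same conditions as for the HIF targets. Capitals mark TTTGAA or TTCGAA on either strand, at chr1:43358731-43358980 on the plus strand for CDC20 and chr16:23678639-23678888 on the plus strand for PLK1.
CDC20: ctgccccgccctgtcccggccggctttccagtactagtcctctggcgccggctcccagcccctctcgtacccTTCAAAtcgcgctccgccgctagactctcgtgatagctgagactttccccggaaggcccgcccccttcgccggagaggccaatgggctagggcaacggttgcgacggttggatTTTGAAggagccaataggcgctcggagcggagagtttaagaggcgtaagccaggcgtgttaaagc
PLK1: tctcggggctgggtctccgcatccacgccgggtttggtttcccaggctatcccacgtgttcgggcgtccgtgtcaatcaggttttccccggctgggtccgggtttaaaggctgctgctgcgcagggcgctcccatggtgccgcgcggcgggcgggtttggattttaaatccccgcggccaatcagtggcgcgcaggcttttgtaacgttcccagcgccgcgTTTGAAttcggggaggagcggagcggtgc

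Part of the DNA replication and ribosome biogenesis genes was lower. Of 58 E2F targets and replication genes 25 (43.1%) were lower, 2 were higher and 31 were not called, against 11.4% lower over all genes, with a median of -0.26. RRM2, the small subunit of ribonucleotide reductase, was at -0.76, and the origin factors CDC6 at -0.50 and MCM10 at -0.60. Of the 7 MCM genes, with MCM10 counted among them, only 3 were called, all of them lower. The 2 higher members were E2F7 (0.26), a repressor of the family, and TYMS (0.19), whose call was lost in 18 of the 24 fits that left out 1 library. Of 48 MYC targets and ribosome biogenesis genes 26 (54.2%) were lower, 2 were higher and 20 were not called. The 2 higher ones were MYC itself (0.24), not called without WT8 dox on replicate 1, and its partner MAX (0.26), not called without WT8 dox on replicate 2, while 17 of 24 nucleolar members were lower, such as NOP2 (-0.63), UTP20 (-0.58) and NOLC1 (-0.41). Their median was -0.46 in MUT10 and -0.18 in MUT35. Proteasome subunits had 6 of 31 (19.4%) lower and 0 higher, with a median of -0.12. At an unadjusted p under 0.05, 8 were lower and 0 higher in edgeR. DESeq2 called 6 and 0, and 0 were higher in every other fit that was made.

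Oxidative phosphorylation did not stand apart from WT8. Of 77 nuclear-encoded subunits and carriers, 3 were higher and 5 lower by the interaction (3.90% and 6.49%, against 12.1% and 11.4% of all genes), with a median of -0.06. In the mutant mean 48 of the 77 fell after withdrawal (35.5% of all genes did), and in WT8 40 fell (29.8%). The mean log2 CPM of the list fell from 6.61 to 6.35 in MUT10, from 6.71 to 6.45 in MUT35 and from 6.59 to 6.37 in WT8. By the interaction CYC1 of complex III (-0.52) and ATP5G1 of the ATP synthase (-0.49) were lower, and the complex I subunit NDUFB8 (0.43) was higher. Both CYC1 and ATP5G1 rose in WT8, where all libraries after withdrawal lay above all libraries with dox. CYC1 did not fall clearly in either mutant clone, since its dox states overlapped in MUT10 and in MUT35. ATP5G1 fell in MUT10 without overlap, and its dox states overlapped in MUT35. Of 28 genes of the TCA cycle and fatty acid oxidation 1 was higher and 2 lower, and of 75 cytosolic ribosomal proteins 1 was higher and 6 lower. These small counts moved with single libraries. Of the oxidative phosphorylation genes 6 were higher without MUT10 dox off replicate 1, and 1 without MUT10 dox on replicate 2 or WT8 dox off replicate 2, while 8 were lower without MUT10 dox on replicate 2 or replicate 4, and 3 without WT8 dox off replicate 4 or dox on replicate 1. Of the ribosomal proteins 3 were lower without WT8 dox off replicate 1 or dox on replicate 1. Without the pair of MUT10 libraries with intermediate GC slopes, 12 oxidative phosphorylation genes and 12 ribosomal proteins were lower. Lower calls over all genes rose as well in that fit, from 1588 to 2325.

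Stress lists had more members higher than lower by the interaction. Of 26 ER chaperones and unfolded protein response genes 11 (42.3%) were higher and 0 lower, against 12.1% and 11.4% of all genes. Their median was 0.19. None was lower at an unadjusted p under 0.05 in edgeR, and 0 were called lower in any other fit that was made. After withdrawal 7 members rose and 12 fell in WT8 (29.5% and 29.8% of all genes did), with a median of -0.14. The mutant mean had 12 higher and 9 lower, with a median of 0.09, beside 5294 and 4937 of the 13900 genes tested. For the 16 chaperones the median was -0.24 in WT8 and -0.03 in the mutant mean. HERPUD1, of ER-associated degradation, was at 0.58, and the chaperone HSPA5 (0.42) fell by 0.44 in WT8 with no call in the mutant mean (-0.02). Of 40 genes of the integrated stress response and amino acid supply 10 (25%) were higher and 0 lower by edgeR. At an unadjusted p under 0.05, 2 were lower. TRIB3, an inhibitor of AKT and ATF4, was at 1.06, asparagine synthetase ASNS at 0.57 and ALDH18A1 of proline synthesis at 0.46. DESeq2 called 1 member lower, as did the fits without MUT10 dox off replicate 1, MUT10 dox on replicate 4 or WT8 dox on replicate 2, and 4 were lower with the GC trend removed.

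Of 33 genes of cholesterol and fatty acid synthesis 10 (30.3%) were higher and 3 (9.09%) lower, against 12.1% and 11.4% of all genes. SCD, the fatty acid desaturase, rose in WT8 from 552 ± 21 to 655 ± 16 CPM, in MUT10 from 489 ± 22 to 1385 ± 110 and in MUT35 from 323 ± 15 to 594 ± 17 (SD, n = 4). Its interaction was 0.94. INSIG1 (0.84), which holds back sterol synthesis, and MSMO1 (0.54), a sterol oxidase, were among those higher. Without WT8 dox off replicate 4 only 1 member was lower. In MUT10 against WT8 17 members were higher, and in MUT35 against WT8 3 were (15% and 5.78% of all genes).

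Of 22 NRF2 targets 6 (27.3%) were higher and 1 (4.55%) lower, against 12.1% and 11.4% of all genes. Heme oxygenase HMOX1 led them. In WT8, HMOX1 was at 25.2, 34.3, 31.7 and 28.7 CPM with dox and 56.4, 50.7, 49.3 and 50.6 CPM after withdrawal. MUT10 went from 22.3, 29.4, 29.5 and 21.5 to 288, 258, 275 and 198 CPM. MUT35 went from 43.6, 43.6, 38.0 and 43.1 to 154, 153, 156 and 168 CPM. WT8 rose too, and the rise was larger in both mutant clones. The interaction of HMOX1 was 1.83 (standard error 0.14), and that of ferritin heavy chain FTH1 was 0.41. Of 30 lysosomal genes 7 (23.3%) were higher and 2 (6.67%) lower. MUT10 against WT8 had 16 higher and 1 lower with a median of 0.35, and MUT35 had 1 higher and 5 lower with a median of -0.02 (15% and 5.78% of all genes were higher). Without the pair of MUT10 libraries named above 11 were higher. The protease CTSD was at 0.96 and acid ceramidase ASAH1 at 0.70. Of 27 p53 targets 7 (25.9%) were higher and 2 (7.41%) lower. The cell cycle inhibitor CDKN1A rose in WT8 (0.66) and more in the mutant clones (1.55).

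Immune signalling lists had members called in both directions, at shares near those over all genes (12.1% higher and 11.4% lower). Of 37 TNF and NF-kappaB response genes 6 (16.2%) were higher and 3 (8.11%) lower. The ubiquitin editor TNFAIP3 was at 0.58 and KLF6 at 0.62, while the cytokine IL6 was at -0.83. IL6 was at 129 ± 2.9 and 138 ± 8 CPM in WT8 and fell in MUT10 from 78.5 ± 3.7 to 57.1 ± 3.8 and in MUT35 from 43.5 ± 3.3 to 21.8 ± 1.9 (SD, n = 4). Of 37 interferon response genes 5 (13.5%) were higher and 6 (16.2%) lower, and called genes of antigen presentation stood on both sides. The class I heavy chains HLA-B (1.12) and HLA-C (0.79) were higher, and TAP2 (-0.52) and PSMB9 (-0.92), which prepare and carry their peptides, were lower.

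In WT8, HLA-B was at 180.2, 174, 183 and 170.2 CPM with dox and 234, 215, 216 and 221 CPM after withdrawal. MUT10 went from 137, 156, 133 and 123 to 541, 470.0, 473 and 429 CPM. MUT35 went from 101, 103, 95.9 and 119 to 225, 225, 219.7 and 225 CPM. HLA-B rose in every clone, least in WT8 and most in MUT10. The HLA class I genes are close relatives, and how reads were shared among them is not known.

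Matrix and growth factor lists had more members lower than higher. Of 53 matrix and mesenchymal genes 18 (34.0%) were lower and 8 (15.1%) higher, against 11.4% and 12.1% of all genes. Their median was -0.34 in MUT10 and 0.02 in MUT35. The activin subunit INHBA (-0.95), the protease PLAU (-0.81) and the BMP antagonist GREM1 (-0.77) were lower, and tenascin TNC (0.55), integrin ITGB3 (0.46) and vimentin VIM (0.33) were higher. Several of these were carried by 1 clone. GREM1 differed from WT8 by -1.63 in MUT10 and 0.09 in MUT35, ITGB3 by 1.01 and -0.09, and TNC by -0.18 and 1.29. Of 29 genes of FGF receptors and ERK feedback 10 (34.5%) were lower and 4 (13.8%) higher. In WT8 itself 15 of them rose, where 29.5% of all genes did. The ERK-induced factors ETV4 (-0.97) and ETV5 (-0.34) and the ligand FGF2 (-0.57) were lower, and the feedback inhibitors SPRY1 (1.58) and DUSP6 (0.66) were higher.

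By the separate contrasts, with the GC trend left in, some interactions arose from WT8. Among genes called in WT8 and not in the mutant mean, the largest by the rule were FAM26F, P2RY6, CNKSR1 and GLI2. FAM26F, a membrane channel protein, fell in WT8 from 11.3 ± 3.5 to 4.4 ± 0.33 CPM (SD, n = 4) and had a mutant effect of 0.05, which gives an interaction of 1.37. P2RY6, a nucleotide receptor, rose in WT8 by 0.96 against -0.09 in the mutant mean. CNKSR1, a scaffold, rose by 1.16 against 0.13. The mutant values of these 3 genes did not pass the test in the mean or in either clone. GLI2, the Hedgehog transcription factor, rose in WT8 by 0.77, and its mutant mean of -0.24 averages opposite moves. It fell in MUT10 by 0.94, from 2.28, 2.11, 1.65 and 1.79 to 0.620, 1.21, 1.47 and 0.773 CPM, and rose in MUT35 by 0.46, so its interaction (-1.01) did not arise from WT8 alone. The difference from WT8 was called in MUT10 (-1.70) and not in MUT35 (-0.31). Of genes called in opposite directions the largest were PALM2-AKAP2 (2.38), a readthrough of its neighbours PALM2 and AKAP2, TCAF2 (2.38), NEBL (2.34) and RGS5 (2.24). RGS5, a brake on G protein signalling in vessel wall cells, fell in WT8 from 24.6 ± 2.2 to 15.9 ± 0.62 CPM, and rose in MUT10 from 18.5 ± 1.5 to 62.4 ± 8.6 and in MUT35 from 35.4 ± 1.3 to 98.3 ± 10 (SD, n = 4).

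MUT10 went further than MUT35. Set against WT8 alone, MUT10 had 2084 genes higher and 1891 lower (15% and 13.6%), and MUT35 had 804 higher and 735 lower (5.78% and 5.29%). The 2 differences share the WT8 libraries. Of the 1684 higher genes of the interaction the median difference from WT8 was 0.72 in MUT10 and 0.43 in MUT35, and of the 1588 lower genes -0.55 and -0.35. Tested directly, the withdrawal effects of the clones differed in 550 of the higher genes, MUT10 having the larger rise in 532 of them, and in 362 of the lower genes, MUT10 having the larger fall in 323. Over all genes 1544 (11.1%) differed. Among HIF targets, PFKFB4, NDRG1 and IGFBP3 rose more in MUT10, by 1.12, 1.28 and 1.07. AREG, CCDC80, AURKA, PLK1 and VHL had differences of -0.19, -0.06, -0.13, -0.18 and -0.01, which did not pass. VHL after withdrawal was lower in MUT35 than in MUT10, and the part of that in these differences was not tested.

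Kidney identity was partial in all groups. Of 28 proximal tubule markers 16 were under 1 CPM in every library, among them the defining genes LRP2, SLC34A1, AQP1 and HNF4A, and 10 passed the filter on low counts. Of those 10, 6 (60%) were higher by the interaction and 0 lower in edgeR, against 12.1% and 11.4% of all genes. At an unadjusted p under 0.05 the counts were 7 and 0, and DESeq2 called 5 and 0. In MUT10 against WT8 7 of the 10 were higher, with a median of 1.00, and in MUT35 2 were, with a median of 0.18, beside 15% and 5.78% of all genes. The summed level of the 28 markers was 1015 to 1097 CPM with dox and 1401 to 1513 CPM after withdrawal in WT8, 563 to 666 and 1569 to 1857 CPM in MUT10, and 839 to 867 and 1396 to 1496 CPM in MUT35. Its largest part was PAX8. CDH6, a cadherin of the developing tubule, was at 358, 322, 329 and 329 CPM in WT8 with dox and 345, 331, 360.1 and 341 after withdrawal. It rose in MUT10 from 93.5, 86.7, 101 and 95.5 to 414, 396, 405 and 447 and in MUT35 from 300.1, 281, 319 and 297 to 434, 419, 442 and 437 CPM. MUT10 with dox was far under the other clones, and both mutant clones lay above WT8 after withdrawal. The peptidases DPP4 (0.94) and MME (0.87) were higher by the interaction. DPP4 was at 1.48 in MUT10 and 0.39 in MUT35, and the clones differed. MME was called in MUT10 (1.13) and not in MUT35 (0.61), where it lay near 1 CPM in both dox states. Of 4 tested markers of other kidney segments 2 were higher and 1, CLDN16 (-1.18), was lower, and without WT8 dox on replicate 2 or replicate 3 only 1 was higher. Of 10 epithelial markers 2 (20%) were higher, CLDN4 (1.19) and EPCAM (0.27), and 3 (30%) lower, KRT7 (-1.46), KRT18 (-0.66) and TJP1 (-0.28).

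Markers of other cells were measured as well. Of 12 lung markers 8 were under 1 CPM in every library, among them NKX2-1 and SFTPC, and their summed level was 6.69 to 30.0 CPM. Of 13 leukocyte markers 8 were under 1 CPM in every library, with PTPRC and CD3E among them. Their sum was 120 to 174 CPM in WT8, 287 to 597 CPM in MUT10 and 171 to 206 CPM in MUT35. The highest level among them was that of CD68, a lysosomal protein of macrophages that other cells also express, at up to 554 CPM. The 8 endothelial markers summed to 0.870 to 3.36 CPM, and 7 were under 1 CPM throughout, PECAM1 and VWF among them. By the interaction 0 of the 3 lung, 4 leukocyte and 1 endothelial markers tested were called by edgeR, none at an unadjusted p under 0.05, and DESeq2 and limma-voom called 0. The 10 fibroblast markers summed to 94.3 to 119 CPM in WT8 and to 35 to 51.0 CPM in MUT10, with LUM the highest at up to 108 CPM, while 5 of them, COL1A2 and COL3A1 included, were under 1 CPM throughout. Of 3 fibroblast markers tested DCN was called higher, at 0.0996 CPM in WT8 and 2.31 CPM in MUT35 after withdrawal. WT8 was under the floor after withdrawal, so no fold is given, and the call was lost without WT8 dox on replicate 4. The part of these markers in the other results was not tested.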

How the data were processed

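RNA was sequenced on a HiSeq4000 from 24 libraries of 3 HK2 clones with and without dox. The deposited table holds expected counts per gene symbol, which the authors estimated with RSEM and bowtie2 on hg38. Tool versions, the annotation and whether counting used strand are not given in the sources used here, nor is the time after withdrawal. The labels name a KAPA stranded kit and the study's methods a Lexogen kit. Counts were rounded to whole numbers, and genes passing edgeR's filterByExpr entered TMM normalisation and a quasi-likelihood fit over all 24 libraries (R 4.3.3, edgeR 4.0.16). P-values were adjusted by Benjamini-Hochberg over the 13900 genes tested. CPM are counts scaled to the TMM-adjusted size of each library. The biological coefficient of variation was 8.37%. No pair of replicates agreed within sampling noise, so all were kept.

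Gene positions and GC content came from GENCODE 44, in which 24282 of 26475 symbols were matched, and promoters from RefSeq. Genes were named by a rule: genes labelled in the study, the 12 largest rises and falls called in both clones' differences from WT8, the 4 largest of each kind of call, and up to 4 members per list and direction. The members and lists were chosen with earlier results of these data known. In a test on simulated counts for the interaction over 13664 genes, 56.7% of changes of 1.5-fold were found, 76.1% of 2-fold and 97.0% of 4-fold, with 10 false calls. The simulated libraries had no GC trend, and each change was the same in both mutant clones. The real libraries had such trends and clone differences, so these rates may not hold for them. Alternatives were DESeq2 1.42.0, limma-voom (limma 3.58.1), other scalings and filters, thinning, removal of GC trends, replicate blocks, and leaving out libraries. Floors are 3 counts per library and cover counting error only. Some genes are not reported here.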

Additional observations from a re-analysis of the deposited data

Results flagged for a closer look

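Single libraries stood apart from the other 3 of their group in 11 of 144 groups of 4 tested, where chance gives about 1 in 20. ENO2 was at 456.5 CPM in MUT10 dox off replicate 4, which also had the lowest mean log2 CPM of HIF targets after withdrawal in that clone, 6.79, and a GC slope between the dox states. SCD was at 1554 CPM in MUT10 dox off replicate 1. In MUT35 with dox, HMOX1 was at 38.0 CPM in replicate 3, MIR205HG at 6.85 CPM in replicate 4 and AURKA at 195.8 CPM in replicate 2. After withdrawal in MUT35, HLA-B was at 219.7 CPM in replicate 3 and PLK1 at 116 CPM in replicate 2, and replicate 4 had CA9 at 0.108 CPM and a mean log2 CPM of oxidative phosphorylation genes of 6.38. CRISPLD2 was at 136.9 CPM in WT8 dox off replicate 4.

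The withdrawal effect in the mutant clones differed from that in WT8 for 3272 genes, and between MUT10 and MUT35 for 1544. MUT10 minus MUT35 was 1.12 for PFKFB4, 0.93 for ENO2, 0.53 for PGK1, 1.28 for NDRG1, 1.07 for IGFBP3, 0.95 for LOX and 0.60 for BNIP3, all on the log2 scale. Outside the HIF list it was 0.89 for RRAGD, 1.40 for HMOX1, 0.70 for HLA-B, 1.61 for CDH6, 0.62 for SCD, 0.54 for IL6 and -2.40 for CRISPLD2. IL6 fell less and CRISPLD2 more in MUT10. The fitted 6.11 for CA9 rests on MUT35 libraries under the floor and depends on the prior count.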

How the results depend on the processing

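Of the 159 named genes called, none changed direction under the alternatives that tested them. Of these, 110 were tested and called under all 36 alternatives, 20 were not tested under at least 1, and 35 lost the call under at least 1, most often with fewer counts.

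Thinned to the smallest library, 1088 genes were higher and 965 lower by the interaction, 1378 and 1203 in MUT10 against WT8, and 459 and 415 in MUT35 against WT8, where 73 were lower by more than 2-fold. With at least 10 counts in every library, the interaction put 208 genes over 2-fold higher and 61 over 2-fold lower, and 392 and 145 in MUT10 and 105 and 53 in MUT35. That filter tests fewer genes of low level. Removing the GC trend gave 1282 lower in MUT35, and leaving out the pair of MUT10 libraries with intermediate GC slopes 1171. The cause was not tested.

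The replicate block, 1 term shared by the clones, gave 1709 higher and 1637 lower. Same-numbered libraries had correlated deviations over 0.1 in 7 of 12 pairs, in MUT35 in all 4 (0.135 to 0.247), while WT8 ran from -0.146 to 0.131 and MUT10 from -0.322 to 0.563. A block within each clone, chosen after the data were seen, gave 1663 and 1597, and 744 and 720 in MUT35. With the block and the GC trend removed, MUT35 had 1211 higher and 1299 lower.

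Without single libraries the interaction had 1476 to 1839 higher and 1353 to 1912 lower genes, and 333 to 379 and 149 to 194 over 2-fold. MUT10 against WT8 had 1785 to 2193 and 1719 to 2229, and 544 to 613 and 254 to 308 over 2-fold. MUT35 against WT8 had 668 to 962 and 606 to 911, and 154 to 185 and 87 to 122 over 2-fold. DESeq2 gave 1602 higher and 1730 lower. HIF targets had 58 to 63 higher and mitotic genes 47 to 51 lower across all alternatives. Depth limits genes near 3 counts, such as CA9, CEMIP and DCN.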
